A study of Mus musculus with 7 samples.

Results

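Mitosis and spindle genes were followed across CD4+ T cells of 3 mouse genotypes. The set was named gene by gene, with no measured value in its rule, and holds 44 genes that act from mitotic entry to the cut between daughter cells. Each gene was represented by the probe set that names it alone and has the highest mean level over the 7 arrays, where a level is log2(intensity + 1). Such a probe set was found for 43 of the 44 genes, against 18193 genes in all. Ccnb1, the other B-type cyclin, was not analysed here, for want of a probe set naming it alone in the annotation used. All 43 were among the 11460 genes tested, those whose highest group mean was at least 5. Cdc25c met that minimum only through the mutant groups, with 4.15 in B6.

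A cell enters mitosis when Cdk1, bound to A- and B-type cyclins, is released from inhibition by Cdc25 phosphatases. Aurora and Polo-like kinases, kinesin motors and kinetochore proteins then build the spindle and attach chromosomes to it, and a checkpoint holds back the anaphase promoting complex until every chromosome is attached. Resting naive T cells hold little of this machinery, and T cells that divide after antigen contact make it anew in each cycle.

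The study compared 3 groups of sorted CD4+ T cells. All came from male mice 3 weeks of age, and from their peripheral lymph nodes. Sf.Il2-/- mice (3 arrays) are Scurfy and in addition null for Il2 (B6.129P2-Il2tm1Hor/J), which encodes interleukin-2, a growth factor of T cells. Sf mice (3 arrays) are Scurfy (B6.Cg-Foxp3sf/J), with a mutation of Foxp3, the transcription factor of regulatory T cells. B6 is C57BL/6, with 1 array from lymph nodes pooled from 2 mice. The cells were depleted of those bearing B220, CD8, CD11b, CD11c or NK1.1 and then sorted for CD3 and CD4. Both mutant groups carry the Foxp3 mutation in all cells, so the mice lack working regulatory T cells and develop inflammatory disease. Genotype and disease cannot be told apart in the comparisons with B6. In bulk RNA, more dividing cells and more RNA per dividing cell cannot be told apart.

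Array medians lay between 29.3 and 32.4 on the intensity scale, and upper quartiles between 110 and 145. Sf 3 had the highest upper quartile and stood apart from Sf 1 and Sf 2 in the mitosis genes, so results that rest on it are given with and without it. The level of Foxp3 was 4.41, 4.20 and 4.24 in Sf.Il2-/- arrays, 6.04, 5.87 and 6.32 in Sf arrays and 7.25 in B6. Il2 measured 7.17, 8.20 and 7.74 in Sf.Il2-/- arrays, 5.39, 5.09 and 7.35 in Sf arrays and 5.22 in B6. The Il2 probe set therefore did not read lower in the null, and whether its probes lie outside the disrupted sequence is not given in the sources used here. The CD4 T cell markers were present, with Cd4 at 9.44 or more and Cd3e at 9.47 or more in every array. Rag1, Rag2 and Ptcra of immature thymocytes and Cd79a and Ms4a1 of B cells read below 5 in every array. Dntt of thymocytes and 3 of 5 B cell markers, Ighm and Cd79b among them, met the minimum level. The summed intensity of the B cell markers was 1910 to 2160 in Sf.Il2-/- arrays, 961 to 1760 in Sf arrays and 3060 in B6. The summed intensity of 6 plasma cell markers was 588 to 635 in Sf.Il2-/- arrays, 504 to 737 in Sf arrays and 355 in B6. Among these markers Tnfrsf17 was below 5 throughout, and 0 of the 4 tested passed the threshold in either comparison with B6, while 2 reached unadjusted p below 0.05 in each with limma. The NK cell markers summed to 495 to 1050 in Sf.Il2-/- arrays, 203 to 622 in Sf arrays and 446 in B6, with Ncr1 below 5 throughout. One of them, Eomes, rose in Sf.Il2-/- v B6 (log2 difference 2.52, limma adjusted p = 0.0346). Klrd1, the other NK cell marker tested, went the other way, at -2.16 in Sf.Il2-/- v B6 and -2.11 in Sf v B6. The 9 CD4 T cell markers summed to 19300 to 21300 in Sf.Il2-/- arrays, 12000 to 17200 in Sf arrays and 23200 in B6. Their median difference was -0.14 in Sf.Il2-/- v B6 and -0.68 in Sf v B6, where all 9 were below 0, 0 passed in limma and 7 reached unadjusted p below 0.05. The part of these marker levels in the differences of the mitosis genes was not tested.

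Mitosis and spindle genes read higher in both mutant groups than in B6. In 38 of 43 genes (88.4%) all 6 mutant arrays lay above the B6 array, against 14.7% of all genes tested. Taken by group, the Sf.Il2-/- arrays all exceeded B6 in 38 genes (24.7% of all genes) and the Sf arrays in 39 (19.6%). The Sf arrays all lay below B6 in 2 genes, Bub3 and Pttg1 (46.9% of all genes), and the Sf.Il2-/- arrays in 1, Pttg1 (44.5%). The fitted difference was above 0 in 42 genes in Sf.Il2-/- v B6 (39.7% of all genes) and in 41 in Sf v B6 (34.7%). The 5 genes outside the 38 were Cdc25b, Bub3, Pttg1, Kif23 and Foxm1. The median difference of the 43 genes was 1.56 on the log2 scale for Sf.Il2-/- v B6 and 1.53 for Sf v B6, where the median of all genes was -0.14 and -0.25. Both comparisons use the same B6 array, so they are not independent. Taken relative to all genes, the medians were 1.70 and 1.78, and after quantile normalization 1.61 and 1.72.

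Fewer genes passed the test than lay above B6. With limma and adjustment over all 11460 genes, 7 of 43 rose and 0 fell in Sf.Il2-/- v B6 at adjusted p below 0.05, where 1.49% of all genes rose and 2.69% passed in either direction. In Sf v B6, 2 of 43 rose and 0 fell, where 1.31% of all genes rose and 2.47% passed in either direction. At unadjusted p below 0.05 limma placed 31 genes higher in Sf.Il2-/- (72.1%, against 6.09% of all genes) and 28 higher in Sf (65.1%, against 5.79%), and 0 and 1 lower, the last being Pttg1. A difference of at least 1, which is 2-fold, was reached by 33 genes in Sf.Il2-/- v B6 and by 32 in Sf v B6, against 5.02% and 5.27% of all genes. The counts of calls depend on which arrays set the spread. Without Sf 3 they were 31 in Sf.Il2-/- v B6 and 26 in Sf v B6, of which 25 rose and Pttg1 fell, but all genes were then called more often as well, 13.1% and 30.0% of them. Without Sf 2 they were 11 and 14, where 2.82% and 2.42% of all genes were called. Without Sf 1, or without any single Sf.Il2-/- array, they were 1 and 1, which was Ccnb2 each time. The share of all genes called was then 1.12% to 1.6% in Sf.Il2-/- v B6 and 1.02% to 2.11% in Sf v B6. With the replicate number as a block the counts were 23 and 24, where 10.6% and 16.4% of all genes were called, most of them lower (867 of 1212 and 1390 of 1880). This block puts the single B6 array, titled replicate 1, with Sf.Il2-/- 1 and Sf 1, although no pairing is stated. The blocked calls against B6 rest on that placement. By role, the block gave in Sf.Il2-/- v B6 and Sf v B6 3 and 3 of 5 cyclins, Cdk1 and phosphatases, 5 and 4 of 6 mitotic kinases, 2 and 2 of 3 passenger partners, and 3 and 4 of 8 checkpoint and anaphase genes. It gave 2 and 2 of 6 kinetochore genes, 6 and 6 of 8 kinesins and spindle assembly factors and 2 and 2 of 4 cytokinesis genes. Of Mki67 and Top2a, Mki67 was called in Sf v B6, and Foxm1 in neither.

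**Figure D1:**
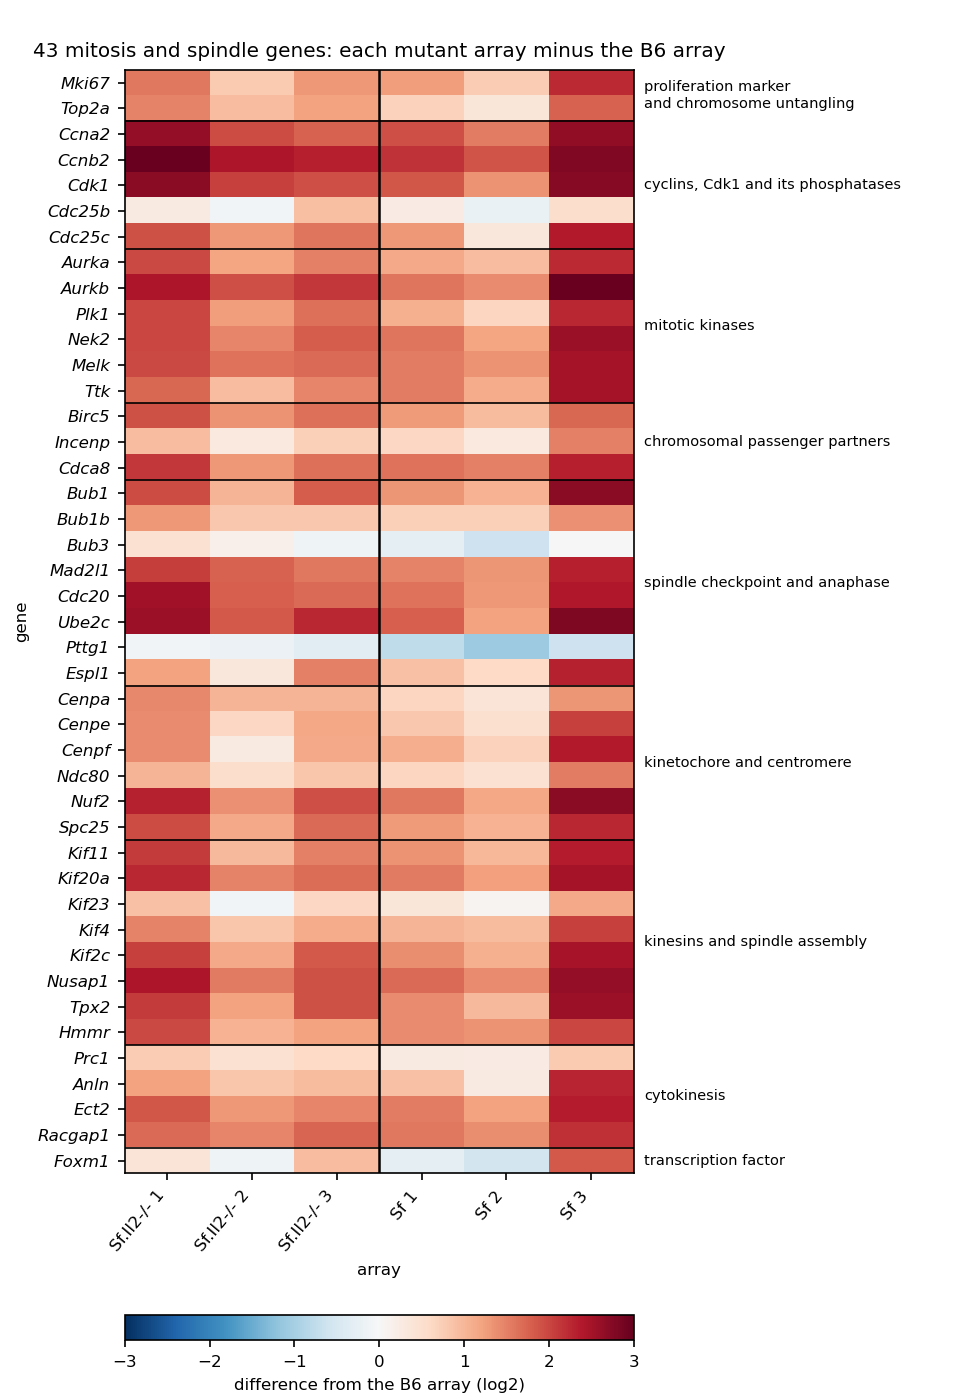
Heat map of 43 genes (rows, by role) and 6 mutant arrays (columns); colour gives the log2 difference of each array from the B6 array. Sf 3 (median 2.30) and Sf.Il2-/- 1 (1.92) are the strongest columns, while Bub3, Pttg1, Cdc25b, Kif23 and Foxm1 stay near or below 0 in some arrays.

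Ccnb2 and Racgap1 passed in both comparisons. Ccnb2, a B-type cyclin that activates Cdk1, measured 10.26, 9.73 and 9.63 in Sf.Il2-/- arrays, 9.47, 9.18 and 10.08 in Sf arrays and 7.30 in B6. Every mutant array was above B6, and the mutant groups overlapped each other. Ccnb2 rose 5.95-fold in Sf.Il2-/- (log2 difference 2.57 ± 0.39 SE, limma adjusted p = 0.0121) and 4.84-fold in Sf (2.27 ± 0.39, adjusted p = 0.0204), and it passed under all 15 other settings tried in each comparison. Racgap1, a GTPase activating protein of the central spindle that positions the cleavage furrow, measured 8.97, 8.74 and 9.01 in Sf.Il2-/- arrays, 8.85, 8.66 and 9.45 in Sf arrays and 7.27 in B6. Its 6 mutant values lay close together and far above B6. Racgap1 rose 3.11-fold in Sf.Il2-/- (1.64 ± 0.34, limma adjusted p = 0.0424) and 3.29-fold in Sf (1.72 ± 0.34, adjusted p = 0.0356), but 8 of 15 other settings ended the call in Sf.Il2-/- and 6 of 15 in Sf.

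Promoters of these genes were read for the letters of 2 elements known from mitotic genes. The CHR (cell cycle genes homology region) is bound by the MuvB complex, which with B-Myb and FoxM1 activates late cell cycle genes, and the CCAAT box is bound by NF-Y. The CHR was searched as TTTGAA or TTCGAA and the box as CCAAT, on both strands, so that TTCAAA and ATTGG count too. Motifs were searched separately, and matches of both may share bases. The windows run from 250 bases before to 50 after the gene start (RefSeq, GRCm38.p6), and 37 of 44 genes were matched to at least 1, with 40 windows in all. Not matched were Aurkb, Ccna2, Cdc25c, Foxm1, Incenp, Kif20a and Tpx2. The promoters below belong to the 2 genes that passed in both comparisons, then to Pttg1 and Bub3, whose Sf arrays all read below B6. Capitals mark CHR and CCAAT matches, and each strand is written 5′ to 3′ in the direction of the gene.
Ccnb2, chr9:70421505-70421804, minus strand: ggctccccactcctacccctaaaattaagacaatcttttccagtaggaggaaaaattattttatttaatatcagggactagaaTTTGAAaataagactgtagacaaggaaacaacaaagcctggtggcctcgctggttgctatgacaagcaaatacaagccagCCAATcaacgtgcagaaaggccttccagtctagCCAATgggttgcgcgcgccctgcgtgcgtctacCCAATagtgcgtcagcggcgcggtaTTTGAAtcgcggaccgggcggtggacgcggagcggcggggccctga
Racgap1, chr15:99651607-99651906, minus strand: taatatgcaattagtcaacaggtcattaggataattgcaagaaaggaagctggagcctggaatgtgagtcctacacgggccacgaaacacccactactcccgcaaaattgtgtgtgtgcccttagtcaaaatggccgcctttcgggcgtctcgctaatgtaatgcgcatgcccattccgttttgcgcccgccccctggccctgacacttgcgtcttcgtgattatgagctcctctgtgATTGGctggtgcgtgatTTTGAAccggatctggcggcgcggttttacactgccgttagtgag
Pttg1, chr11:43425932-43426231, minus strand: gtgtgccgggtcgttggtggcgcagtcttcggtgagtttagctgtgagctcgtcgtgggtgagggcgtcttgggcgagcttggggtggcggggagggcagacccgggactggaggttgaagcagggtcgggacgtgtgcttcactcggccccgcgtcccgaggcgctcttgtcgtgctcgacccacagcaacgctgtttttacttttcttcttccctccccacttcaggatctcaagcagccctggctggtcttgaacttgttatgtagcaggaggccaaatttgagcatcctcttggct
Bub3, chr7:131560120-131560419, plus strand: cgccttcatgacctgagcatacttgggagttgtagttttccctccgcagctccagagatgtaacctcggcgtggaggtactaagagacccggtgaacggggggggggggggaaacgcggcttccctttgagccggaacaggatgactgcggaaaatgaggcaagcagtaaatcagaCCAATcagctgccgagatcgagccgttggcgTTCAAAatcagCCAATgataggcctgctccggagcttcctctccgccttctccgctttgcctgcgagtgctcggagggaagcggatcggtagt
The Ccnb2 window holds 2 CHR and 3 CCAAT matches and that of Racgap1 holds 1 and 1. The Bub3 window shown also holds both, with 1 CHR and 2 CCAAT matches, as does an overlapping Bub3 window not shown. The Pttg1 window holds 0 of either.

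Of the matched genes, 28 of 37 (75.7%) held a CHR match in a window, against 21.7% of 27025 genes with a window. Between 100 bases before and 50 after the start the shares were 73.0% and 9.87%. A CCAAT match was present in 28 of 37 (75.7%, against 41.1% of all genes), 2 or more in 19 (51.4%, against 13.3%), and both motifs in 25 (67.6%, against 8.61%). Among other lists of the cell cycle, the share with both motifs was 45.0% of other mitosis genes, 27.3% of condensin and cohesin genes, 18.2% of DNA replication genes and 6.67% of anaphase promoting complex genes. Within the set, the 28 tested genes with a CHR match had a median difference of 1.39 in Sf.Il2-/- v B6 and 1.42 in Sf v B6. The 8 without one (Birc5, Cenpe, Mad2l1, Melk, Nek2, Nuf2, Nusap1 and Pttg1) had medians of 1.76 and 1.76. The difference between these medians was not tested.

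**Figure D2:**
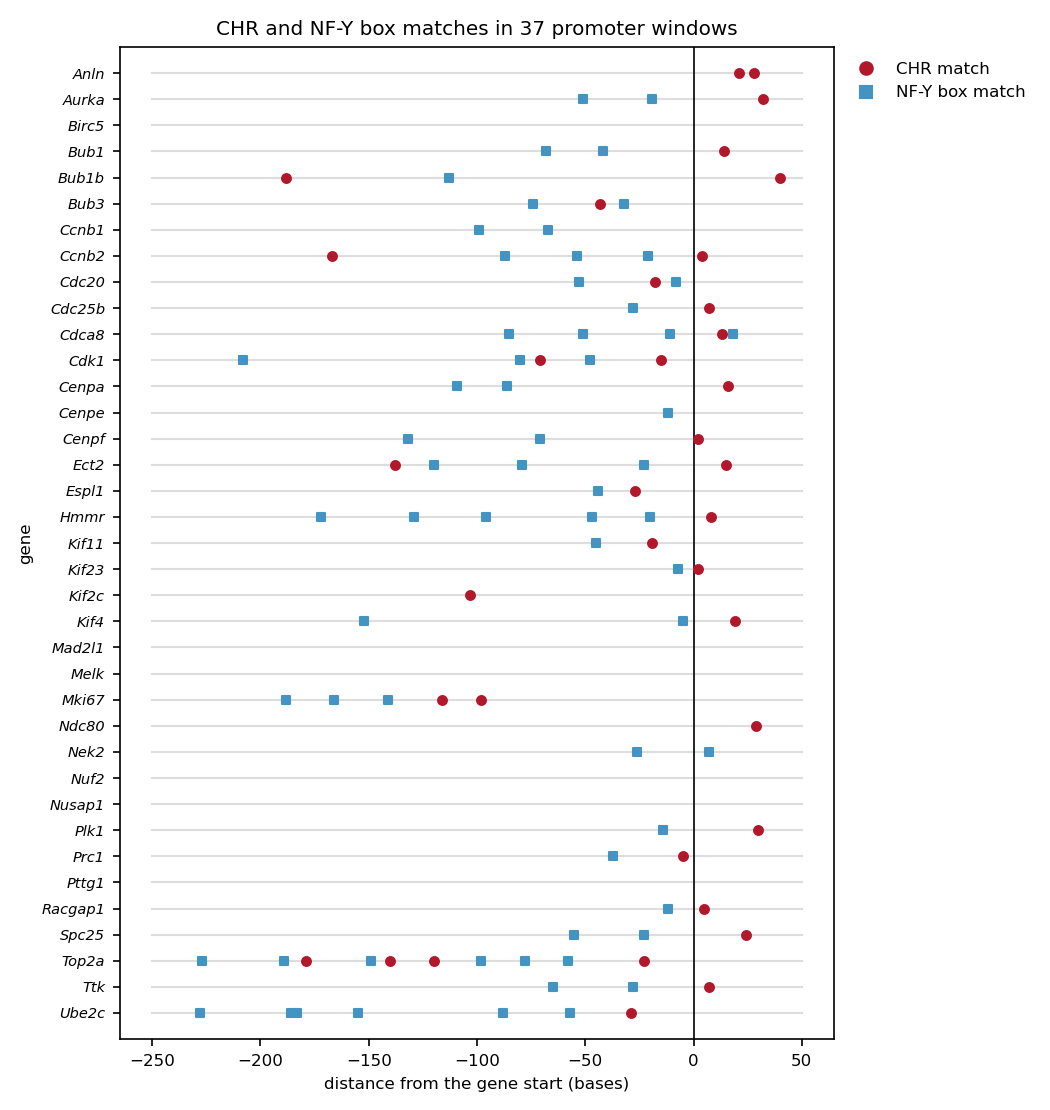
Positions of CHR matches (circles) and CCAAT matches (squares, labelled NF-Y box) in 1 window for each of 37 genes, in bases from the gene start. CHR matches gather near the start, with 27 of 37 genes holding one between 100 bases before and 50 after it.

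The proliferation marker Mki67, which coats mitotic chromosomes, measured 9.96, 9.17 and 9.67 in Sf.Il2-/- arrays, 9.63, 9.15 and 10.61 in Sf arrays and 8.38 in B6. Top2a, the topoisomerase that untangles sister DNA, measured 10.63, 10.07 and 10.35 in Sf.Il2-/- arrays, 9.82, 9.51 and 10.92 in Sf arrays and 9.14 in B6. Every mutant array exceeded B6 for both genes, with Sf 3 the highest. With the settings unchanged, neither passed. In Sf v B6 Mki67 passed with the replicate block, with quantile normalization and without Sf 3, and Top2a passed with quantile normalization. In Sf.Il2-/- v B6 both passed without Sf 3, and Top2a also with quantile normalization. Mki67 differed by 1.22 ± 0.51 in Sf.Il2-/- v B6 and 1.41 ± 0.51 in Sf v B6 (limma adjusted p = 0.239 and 0.149), and Top2a by 1.21 ± 0.47 and 0.94 ± 0.47 (adjusted p = 0.216 and 0.267).

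Among cyclins, Cdk1 and its phosphatases, 3 of 5 rose in Sf.Il2-/- v B6 and 1 of 5 in Sf v B6, with medians of 2.13 and 1.98. Ccna2, the cyclin of S phase and mitotic entry, measured 9.97, 9.29 and 9.11 in Sf.Il2-/- arrays, 9.27, 8.86 and 9.99 in Sf arrays and 7.33 in B6. Cdk1, the kinase that drives mitotic entry, measured 10.20, 9.54 and 9.44 in Sf.Il2-/- arrays, 9.36, 8.84 and 10.24 in Sf arrays and 7.50 in B6. Mutant arrays were all more than 2-fold above B6 for both genes. Ccna2 rose 4.36-fold (2.13 ± 0.46, limma adjusted p = 0.0462) and Cdk1 4.68-fold (2.23 ± 0.50, adjusted p = 0.0495) in Sf.Il2-/-. In Sf v B6 Ccna2 differed by 2.05 ± 0.46 (limma adjusted p = 0.0518) and Cdk1 by 1.98 ± 0.50 (adjusted p = 0.0698). The calls in Sf.Il2-/- ended under 7 and 8 of 15 other settings. The 2 phosphatases that remove inhibitory phosphate from Cdk1 differed from each other. Cdc25b differed by 0.36 ± 0.42 and 0.18 ± 0.42, and its Sf.Il2-/- 2 and Sf 2 arrays lay below B6. Cdc25c, dim throughout, differed by 1.61 ± 0.63 and 1.34 ± 0.63, and did not pass (limma adjusted p = 0.217 and 0.243).

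Mitotic kinases had differences of similar size. All 6 had every mutant array above B6, differences of 1.37 to 2.17 in Sf.Il2-/- v B6 and of 1.32 to 1.99 in Sf v B6, and medians of 1.70 and 1.75. Each reached unadjusted p below 0.05 in both comparisons, yet 0 of 6 passed after adjustment (5 and 4 with the replicate block), with Melk closest (limma adjusted p = 0.0643 and 0.0598). Plk1, the Polo-like kinase of spindle assembly and mitotic entry, measured 8.73, 7.98 and 8.38 in Sf.Il2-/- arrays, 7.79, 7.36 and 8.97 in Sf arrays and 6.72 in B6. Nek2, a kinase that separates centrosomes, measured 8.27, 7.72 and 8.07 in Sf.Il2-/- arrays, 7.87, 7.44 and 8.86 in Sf arrays and 6.26 in B6. The others were Aurka, which matures spindle poles, Aurkb of the chromosomal passenger complex, Ttk, the checkpoint kinase Mps1, and Melk. Of these, Aurkb had the largest differences, 2.17 ± 0.53 and 1.99 ± 0.53 (limma adjusted p = 0.0688 and 0.0798).

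Birc5 (survivin), Cdca8 (borealin) and Incenp hold Aurkb at centromeres and the midzone. Birc5 measured 10.37, 9.82 and 10.12 in Sf.Il2-/- arrays, 9.74, 9.41 and 10.19 in Sf arrays and 8.47 in B6. It rose 3.10-fold in Sf.Il2-/- (1.63 ± 0.34, limma adjusted p = 0.0426), a call that 7 of 15 other settings ended, and differed by 1.31 ± 0.34 in Sf v B6 (adjusted p = 0.0786). Cdca8 was close to the threshold without passing, at 1.69 ± 0.41 and 1.83 ± 0.41 (limma adjusted p = 0.0693 and 0.0523). Incenp measured 9.88, 9.24 and 9.67 in Sf.Il2-/- arrays, 9.56, 9.24 and 10.46 in Sf arrays and 8.95 in B6. Its differences were smaller, 0.65 ± 0.45 and 0.81 ± 0.45, within the spread that the fit allows (limma adjusted p = 0.473 and 0.303).

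The spindle checkpoint and anaphase genes were the least uniform. Of 8 genes, 2 rose in Sf.Il2-/- v B6 and 0 in Sf v B6, where 6 of the 8 reached unadjusted p below 0.05, Pttg1 of these in the lower direction. Mad2l1, the checkpoint protein that sequesters Cdc20, measured 9.77, 9.48 and 9.29 in Sf.Il2-/- arrays, 9.20, 9.02 and 10.04 in Sf arrays and 7.70 in B6. Cdc20, an activator of the anaphase promoting complex, measured 10.27, 9.56 and 9.47 in Sf.Il2-/- arrays, 9.40, 9.07 and 10.16 in Sf arrays and 7.76 in B6. Inhibitor and activator thus both stood above B6 in every mutant array. Mad2l1 rose 3.51-fold (1.81 ± 0.40, limma adjusted p = 0.0487) and Cdc20 4.01-fold (2.00 ± 0.45, adjusted p = 0.0492) in Sf.Il2-/-, and 8 of 15 other settings ended each call. In Sf v B6 they differed by 1.72 ± 0.40 and 1.78 ± 0.45 (limma adjusted p = 0.0583 and 0.0698). Ube2c, the ubiquitin-conjugating enzyme of the same complex, differed by 2.23 ± 0.53 and 1.93 ± 0.53 without passing (limma adjusted p = 0.0633 and 0.0886). The checkpoint kinases Bub1 and Bub1b and the protease separase (Espl1) differed by 0.98 to 1.60 in Sf.Il2-/- and by 0.93 to 1.69 in Sf.

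Pttg1 and Bub3 did not share this pattern. Pttg1 is securin, which keeps separase inactive until anaphase, and Bub3 carries the checkpoint kinases to kinetochores. Pttg1 measured 10.84, 10.75 and 10.59 in Sf.Il2-/- arrays, 10.17, 9.84 and 10.30 in Sf arrays and 10.93 in B6. Bub3 measured 11.01, 10.71 and 10.43 in Sf.Il2-/- arrays, 10.28, 9.94 and 10.54 in Sf arrays and 10.55 in B6. For Pttg1 all 6 mutant arrays lay below B6, and for Bub3 the 3 Sf arrays did. Pttg1 differed by -0.20 ± 0.25 in Sf.Il2-/- v B6 and by -0.83 ± 0.25 in Sf v B6 (limma adjusted p = 0.717 and 0.111). Bub3 differed by 0.16 ± 0.30 and -0.30 ± 0.30 (limma adjusted p = 0.821 and 0.559). Quantile normalization turned the sign of Pttg1 in Sf.Il2-/- v B6 to 0.08 and that of Bub3 in Sf v B6 to 0.36, so neither of these signs is fixed. In Sf v B6 Pttg1 stayed below 0 under all 15 other settings, from -0.93 to -0.15. Its other probe sets differed there by -0.33 and -0.76.

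**Figure D3:**
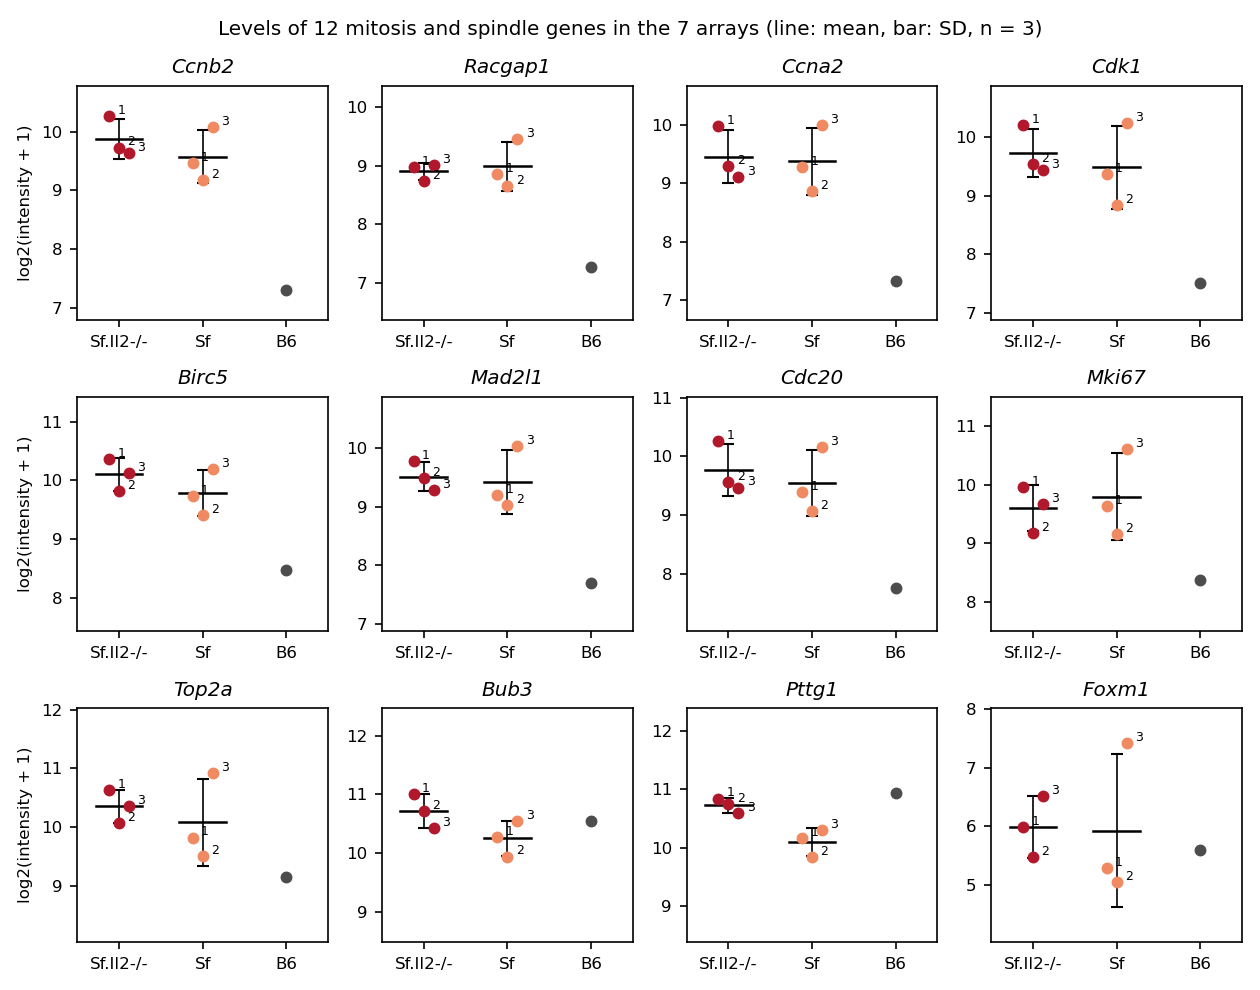
Levels of 12 genes, as log2(intensity + 1), in Sf.Il2-/- (left), Sf (middle) and B6 (right); points are arrays with their replicate numbers, lines are means and bars SD (n = 3), and B6 is 1 array. Every panel covers the same span of levels but starts at its own value above 0. Pttg1, with 10.93 in B6, is the panel in which B6 is above every mutant array.

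At the kinetochore and centromere all 6 genes had every mutant array above B6, and 0 passed limma's test in either comparison (medians 1.11 in Sf.Il2-/- and 1.25 in Sf). With the replicate block Nuf2 and Spc25 passed in both. At unadjusted p below 0.05 there were 3 and 2. Nuf2, part of the Ndc80 complex that grips microtubules, was nearest, at 1.88 ± 0.56 and 1.82 ± 0.56 (limma adjusted p = 0.124 and 0.111). Spc25 of the same complex measured 8.61, 7.79 and 8.35 in Sf.Il2-/- arrays, 7.92, 7.70 and 8.92 in Sf arrays and 6.65 in B6. Its differences were 1.60 ± 0.48 and 1.53 ± 0.48 (limma adjusted p = 0.131 and 0.118). Ndc80 itself differed by 0.80 ± 0.41 and 0.89 ± 0.41. Cenpa, the histone H3 variant that marks centromeres, measured 9.98, 9.57 and 9.57 in Sf.Il2-/- arrays, 9.19, 8.94 and 9.88 in Sf arrays and 8.55 in B6, with differences of 1.16 ± 0.38 and 0.79 ± 0.38 (limma adjusted p = 0.154 and 0.246). A second Cenpa probe set ran the other way, at -2.54 and -2.83, and averaging a gene's probe sets turned Cenpa to -0.34 and -0.41, so no direction is given for Cenpa. Cenpe, a kinetochore motor, and Cenpf differed by 0.93 to 1.39.

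Of 8 kinesins and spindle assembly factors, 7 had every mutant array above B6 and 0 passed limma's test (medians 1.60 in Sf.Il2-/- and 1.61 in Sf), although 7 reached unadjusted p below 0.05 in each comparison. With the replicate block 6 passed in both, namely Hmmr, Kif11, Kif20a, Kif2c, Nusap1 and Tpx2. Nusap1, which bundles spindle microtubules, measured 9.98, 9.11 and 9.47 in Sf.Il2-/- arrays, 9.27, 8.98 and 10.20 in Sf arrays and 7.56 in B6. With differences of 1.97 ± 0.48 and 1.93 ± 0.48 it was the nearest to the threshold (limma adjusted p = 0.0685 and 0.0675). Kif23 measured 9.27, 8.30 and 9.0 in Sf.Il2-/- arrays, 8.75, 8.47 and 9.52 in Sf arrays and 8.39 in B6, so that 1 Sf.Il2-/- array read below B6. This motor forms the centralspindlin complex with Racgap1, the gene that passed in both comparisons, while Kif23 differed by 0.47 ± 0.47 and 0.53 ± 0.47 (limma adjusted p = 0.635 and 0.503). The pole-separating motor Kif11, the central spindle motor Kif20a, the chromokinesin Kif4, the microtubule depolymerase Kif2c, the spindle assembly factor Tpx2 and Hmmr differed by 1.15 to 1.81 in Sf.Il2-/- and by 1.35 to 1.76 in Sf.

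In cytokinesis Racgap1 was the gene called, 1 of 4 in each comparison, joined by Ect2 with the replicate block. Ect2, the exchange factor that Racgap1 recruits to activate RhoA, differed by 1.55 ± 0.43 in Sf.Il2-/- v B6 and 1.69 ± 0.43 in Sf v B6 (limma adjusted p = 0.104 and 0.0717). Prc1, which bundles antiparallel microtubules of the midzone, measured 8.02, 7.73 and 7.87 in Sf.Il2-/- arrays, 7.55, 7.51 and 8.05 in Sf arrays and 7.27 in B6. All mutant values were above B6, by differences of 0.59 ± 0.31 and 0.43 ± 0.31 (limma adjusted p = 0.340 and 0.417). Anln, the contractile ring scaffold anillin, differed by 1.00 ± 0.61 and 1.15 ± 0.61. Foxm1, a transcription factor of mitotic genes, measured 5.98, 5.47 and 6.52 in Sf.Il2-/- arrays, 5.29, 5.05 and 7.42 in Sf arrays and 5.59 in B6. It was dim and its arrays lay on both sides of B6, with differences of 0.40 ± 0.79 and 0.33 ± 0.79 (limma adjusted p = 0.831 and 0.812). Without Sf 3 the Sf difference of Foxm1 was -0.42. Another Foxm1 probe set past the minimum level had every mutant array above B6, which read 4.46, with differences of 0.82 and 1.08. A further one differed by 0.11 and 0.29. The placing of Foxm1 against B6 thus depends on the probe set.

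**Figure D4:**
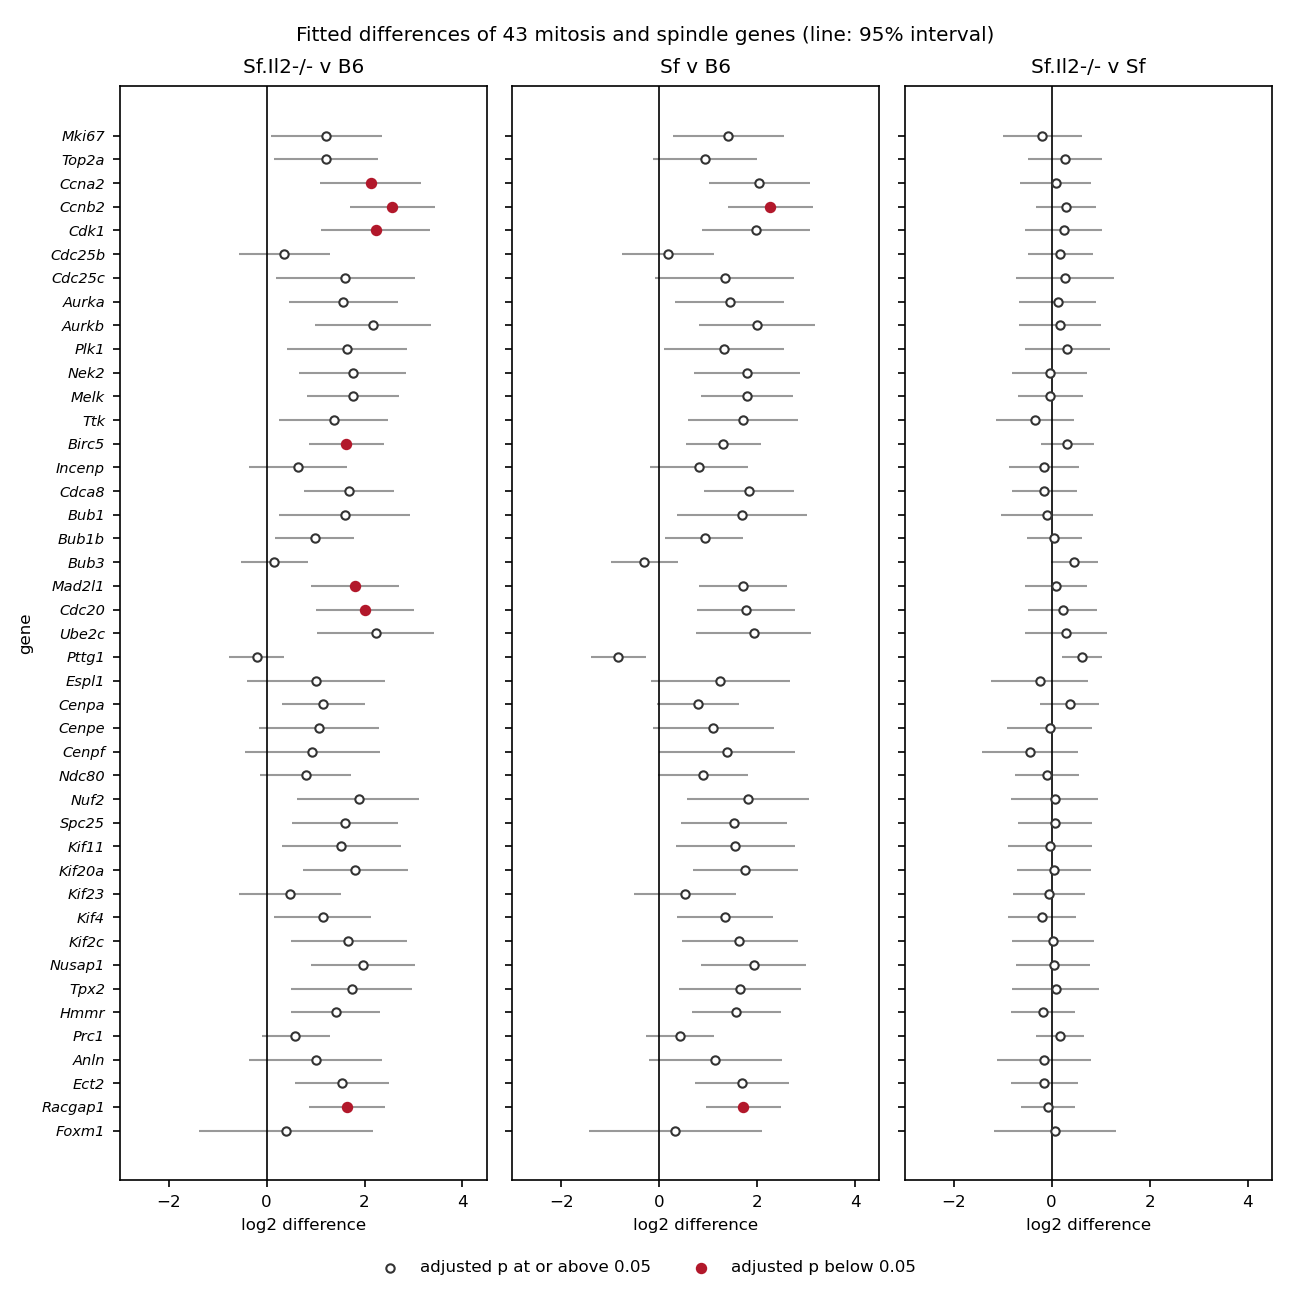
Fitted log2 differences of 43 genes (points) with 95% intervals (lines) in Sf.Il2-/- v B6, Sf v B6 and Sf.Il2-/- v Sf; filled points passed at adjusted p below 0.05. There are 7, 2 and 0 filled points, and the Sf.Il2-/- v Sf points lie between -0.45 and 0.62.

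Loss of Il2 in Scurfy cells gave no called difference in these genes. In Sf.Il2-/- v Sf 0 of 43 passed with limma, where 0.279% of all genes passed, and 1 reached unadjusted p below 0.05, against 7.92% of all genes, or 5.46% in the higher direction. That gene was Pttg1, at 0.62 ± 0.18 or 1.54-fold (limma adjusted p = 0.375). A difference of at least 1 was reached by 0 genes, against 0.707% of all genes. Pttg1 was also the 1 gene whose Sf.Il2-/- arrays all lay above the Sf arrays, against 8.39% of all genes, and 0 lay wholly below, against 3.72%. Without Sf 3 Pttg1 passed (limma adjusted p = 0.0315), as did 7.43% of all genes. The other probe sets of Pttg1 differed by 0.53 and -0.05. The median difference of the 43 genes was 0.05 and that of all genes 0.08, with 25 genes above 0 (58.1%, against 62.2%). These values do not show that the mutant groups are alike. The 95% interval of the difference stayed within 2-fold either way for 29 genes and reached 2-fold for 14, and 0 reached 4-fold. The widest bounds were -1.43 for Cenpf and 1.32 for Foxm1.

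Array by array, the mitosis genes moved together within each mutant group. Sf 3 was the highest Sf array for 43 of 43 genes, against 68.0% of all genes, and the highest of the 6 mutant arrays for 36, against 32.6%. Sf 2 was the lowest Sf array for 43 of 43, against 60.0%. Sf.Il2-/- 1 was the highest of its group for 39 genes, against 25.6% of all genes, and Sf.Il2-/- 2 the lowest for 35, against 36.4%. The median difference from B6 was 1.92, 1.13 and 1.52 in Sf.Il2-/- 1, 2 and 3, and 1.30, 0.99 and 2.30 in Sf 1, 2 and 3. The lowest and highest mutant arrays were thus both in the Sf group, at 1.98-fold and 4.92-fold by the median gene. The SD within a group had a median of 0.40 over these genes in Sf.Il2-/- and 0.65 in Sf, against 0.22 and 0.31 over all genes. Foxm1 spread most in Sf, over 2.37, and Pttg1 least, over 0.46.

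The direction of Sf.Il2-/- v Sf depended on which arrays were set side by side. Sf.Il2-/- 1 exceeded Sf 1 in 43 of 43 genes (58.8% of all genes), with a median of 0.62. Sf.Il2-/- 2 exceeded Sf 2 in 34 genes (66.6% of all genes), with a median of 0.22. Sf.Il2-/- 3 exceeded Sf 3 in 2 genes, Cdc25b and Pttg1 (49.6% of all genes), with a median of -0.75. Over all genes the medians of these pairs, in the same order, were 0.07, 0.18 and -0.0, so that of Sf.Il2-/- 2 was close to its 0.22. The pairs share replicate numbers only, and the titles state no pairing. Leaving out Sf 3 gave a median of 0.41 (0.19 over all genes), and leaving out Sf 2 one of -0.24 (0.01 over all genes). With the replicate block 0 of 43 passed in Sf.Il2-/- v Sf.

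Genes of neighbouring pathways showed how far the pattern reached. Of 45 other mitosis genes tested, 3 rose and 0 fell in Sf.Il2-/- v B6, 1 rose in Sf v B6, and 0 passed in Sf.Il2-/- v Sf (medians 1.32, 1.34 and -0.02). Knl1, the kinetochore scaffold that binds the Ndc80 complex and the Bub kinases, measured 6.62, 6.44 and 5.99 in Sf.Il2-/- arrays, 6.11, 6.48 and 6.69 in Sf arrays and 4.64 in B6. Knl1 met the minimum level only through the mutant groups. It rose 3.29-fold in Sf.Il2-/- (limma adjusted p = 0.037) and 3.46-fold in Sf (adjusted p = 0.0296), calls that 5 and 4 of 15 other settings ended. Cks2 and Cks1b, small subunits that bind cyclin-dependent kinases, rose 4.16-fold and 3.01-fold in Sf.Il2-/- (limma adjusted p = 0.0461 and 0.044), and 8 and 7 of 15 settings ended these calls. Among 28 DNA replication genes 2 rose in Sf.Il2-/- and 1 in Sf, with medians of 0.87 and 0.95. Rrm2, a subunit of ribonucleotide reductase, rose 3.95-fold in Sf.Il2-/- and 3.50-fold in Sf (limma adjusted p = 0.0357 and 0.0491), and Tk1, thymidine kinase, 4.13-fold in Sf.Il2-/- (adjusted p = 0.0453). The Rrm2 calls ended under 6 and 9 of 15 settings and the Tk1 call under 8. In Sf.Il2-/- v Sf 0 of 28 replication genes passed in limma, and 0 reached unadjusted p below 0.05. The lowest p of each list in Sf.Il2-/- v Sf belonged to Zwint (0.73 ± 0.22), a partner of Knl1, and to the replicative helicase subunit Mcm6 (0.47 ± 0.24), neither of them past the threshold (limma adjusted p = 0.424 and 0.707). Without Sf 3 both passed, Zwint at 0.90 and Mcm6 at 0.75 (limma adjusted p = 0.0287 and 0.0321), where 7.43% of all genes were called. That was the 1 of 16 other settings in which either passed. Averaging the probe sets gave 0.19 for Zwint, and quantile normalization gave 0.04 for Mcm6.

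In other parts of the division machinery the medians against B6 lay far below those of the mitosis genes. The list of 16 anaphase promoting complex genes holds subunits and also the activator Fzr1 and the inhibitor Fbxo5. It had 0 calls in each comparison and medians of -0.10 and -0.31 against B6, although Cdc20, another activator, rose in Sf.Il2-/-. The 15 condensin and cohesin genes also had 0 calls, with medians of -0.27 and -0.45, but spread widely. Ncaph, a subunit of condensin I, differed by 1.55 ± 0.40 in Sf.Il2-/- v B6 and 1.58 ± 0.40 in Sf v B6 (limma adjusted p = 0.0853 and 0.0728). At unadjusted p below 0.05 limma counted 6 of 15 condensin and cohesin genes in each comparison and 1 of 16 anaphase promoting complex genes, Anapc5 (-0.82 ± 0.25 and -1.07 ± 0.25). Over all genes the share in either direction was 18.6% in Sf.Il2-/- v B6 and 22.5% in Sf v B6. Of 9 tubulin and stathmin genes, 0 passed in Sf.Il2-/- v B6, where 4 reached unadjusted p below 0.05 in limma, and their medians were -0.09 in Sf.Il2-/- v B6 and -0.36 in Sf v B6. In Sf v B6 2 fell, Tuba1a 2.26-fold and Tubb2a 3.74-fold (limma adjusted p = 0.0204 and 0.0487, calls that 3 and 9 of 15 settings ended), but 0 fell and 1 rose after quantile normalization. Quantile normalization turned the condensin and cohesin medians to 0.05 and 0.15 and those of the anaphase promoting complex to 0.19 and 0.06. In Sf.Il2-/- v Sf all 3 lists had 0 calls in limma, and the counts at unadjusted p below 0.05 were 0 for condensin and cohesin, 0 for the anaphase promoting complex and 2 for tubulins and stathmin. The lowest p belonged to the cohesin release factor Wapl (0.41 ± 0.23), to Anapc13 (0.39 ± 0.20) and to Tuba1a (0.58 ± 0.14). Without Sf 3 Wapl passed at 0.63 and Tuba1a at 0.59 (limma adjusted p = 0.046 and 0.0312), where 7.43% of all genes were called. With quantile normalization these genes differed by 0.19 and 0.18. The 9 tubulin and stathmin genes were all above 0 in Sf.Il2-/- v Sf, as were 62.2% of all genes. Their median was 0.44, against 0.08 for all genes, and after quantile normalization 0.18, against 0.03.

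Of 22 cell cycle inhibitor and quiescence genes, 1 fell in Sf.Il2-/- v B6, and 1 rose and 1 fell in Sf v B6. Of all genes 2.69% and 2.47% passed in either direction. The list medians were -0.26 and -0.29, against -0.14 and -0.25 for all genes. At unadjusted p below 0.05 limma counted 6 and 8 of the 22, against 18.6% and 22.5% of all genes. Foxo1, a transcription factor of quiescent naive T cells, measured 9.20, 9.36 and 9.75 in Sf.Il2-/- arrays, 9.28, 9.18 and 9.60 in Sf arrays and 11.28 in B6. All mutant arrays were below B6, and Foxo1 fell 3.58-fold in Sf.Il2-/- and 3.80-fold in Sf (limma adjusted p = 0.0176 and 0.0153), of which 3 of 15 settings ended the call in Sf.Il2-/- and 0 that in Sf. Cdkn1a, the kinase inhibitor p21, measured 5.98, 6.54 and 6.23 in Sf.Il2-/- arrays, 7.31, 7.16 and 7.49 in Sf arrays and 5.26 in B6. It rose 4.16-fold in Sf v B6 (limma adjusted p = 0.0111), and its 3 Sf.Il2-/- arrays lay between B6 and the Sf arrays. In Sf.Il2-/- v Sf Cdkn1a differed by -1.07 ± 0.21 without passing (limma adjusted p = 0.122). Of 16 other settings it passed in 2, without Sf 3 and with the array sets as a block (limma adjusted p = 0.0315 and 0.0442). Of all genes 7.43% were called without Sf 3 and 0.646% with that block. The array sets came from an earlier look at these same values, so the call under that block is not independent of them.

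**Figure D5:**
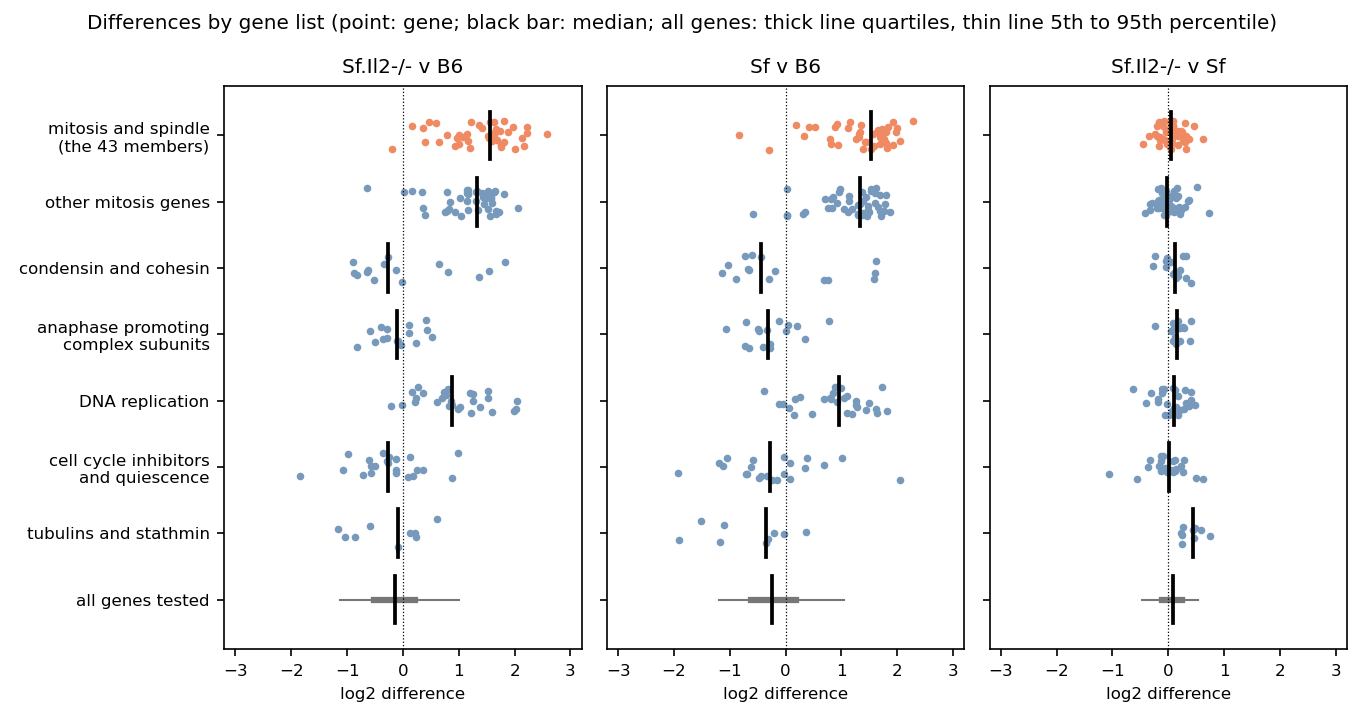
Fitted log2 differences by list in Sf.Il2-/- v B6, Sf v B6 and Sf.Il2-/- v Sf; each point is a gene, black bars are list medians, and the grey lines give the quartiles (thick) and the 5th to 95th percentile (thin) of all 11460 genes. Mitosis and spindle genes (1.56 and 1.53), other mitosis genes and DNA replication genes lie to the right of all genes against B6.

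Alternative probe sets bear on some of these values. Of 98 probe sets that name 1 of the genes alone, 55 were not used, and 40 of those passed the minimum level. Of the 40, 6 had the opposite sign to the probe set used in Sf.Il2-/- v B6 (Incenp, Cenpa, Pttg1 and 3 of Bub3) and 4 in Sf v B6 (Incenp, Tpx2, Cenpa and Bub3).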

How the data were processed

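RNA of sorted CD4+ T cells was measured on 7 Affymetrix arrays (Sf.Il2-/- 3, Sf 3, B6 1), grouped by title. The deposited table gives the authors' linear intensity for 45037 probe sets. GCRMA and GCOS are named per the submitters' processing notes, with roles and order not given in the sources used here. Of the probe sets, 34945 name 1 gene in the array annotation, 932 several and 9160 none. Gene symbols were updated through the GRCm38.p6 gene table.

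Levels are log2(intensity + 1), from the probe set naming only that gene with the highest mean. Genes with a highest group mean of at least 5 (11460) entered 1 limma fit of 3 group means over all arrays (limma 3.58.1, R 4.3.3; lmFit, eBayes with an intensity trend, 4 residual and 9.57 total degrees of freedom), with Benjamini-Hochberg adjustment at 0.05. The B6 array is assumed to vary like the others. p-values measure the spread between these arrays, whose small number limits precision. Figures were drawn with matplotlib 3.10.9.

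Replicate numbers come from the titles, which state no pairing. Deviations from the group mean correlated at 0.301, 0.211 and 0.505 between same-numbered Sf.Il2-/- and Sf arrays, all above 0.1. Differently numbered arrays reached 0.333 (Sf.Il2-/- 1 with Sf 2) and 0.111 (Sf.Il2-/- 2 with Sf 1). The other pairs, each with 1 array numbered 3, lay between -0.477 and -0.199. These correlations thus do not set the replicate number apart, and blocked counts are given where they differ.

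Values in every array are given for members past the threshold, for Mki67, Top2a and Cdk1, and for the 2 members of each role with the highest mean. Of each other list up to 4 called members are named per comparison, or the one with the lowest p. Cdca8, Melk, Aurkb, Ube2c, Nuf2, Ect2, Cdc25b, Cdc25c and others given only by their differences were added as members. Members, lists, tests and alternatives were chosen with earlier results of these data known.

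Alternatives were no minimum level or one of 6, quantile normalization, arrays centred on their medians, a pseudocount of 16, the probe sets of a gene averaged, eBayes without a trend, each array left out, a replicate block, and array sets as a block. The array sets (set 1 with Sf.Il2-/- 1 and 2 and Sf 1 and 2, set 2 with the others) come from an earlier look at the values, not from the labels.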

Additional observations from a re-analysis of the deposited data

How the results depend on the processing

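The direction of the median difference against B6 held under all alternatives tried, and calls did not. For Sf.Il2-/- v B6, 7 calls became 1 with no minimum level, with a pseudocount of 16 or with eBayes without a trend, 3 with probe sets averaged, 21 with quantile normalization and 23 with the replicate block or the array set block. Leaving out single arrays gave 1 to 31. For Sf v B6, 2 calls became 1 with no minimum level or the mean of probe sets, 5 with a minimum of 6, 22 with quantile normalization, 24 with the replicate block and 20 with the array set block. Leaving out single arrays gave 1 to 26. For Sf.Il2-/- v Sf the count was 0, also with the replicate block, and 0 to 1 when single arrays were left out. Over all genes, quantile normalization gave 484 higher and 239 lower in Sf.Il2-/- v B6 (171 and 137 without it) and 391 and 163 in Sf v B6 (150 and 133). With the array set block 6.29% of all genes were called in Sf.Il2-/- v B6 and 5.28% in Sf v B6. Medians ranged, when single arrays were left out, over 1.39 to 1.75 in Sf.Il2-/- v B6, 1.16 to 1.77 in Sf v B6 and -0.24 to 0.41 in Sf.Il2-/- v Sf. Within array set 2 they were 2.30 in Sf v B6 and -0.75 in Sf.Il2-/- v Sf, and within set 1 the last was 0.39. Over all genes the medians in Sf.Il2-/- v Sf were -0.0 within set 2 and 0.13 within set 1. The causes were not tested, except that leaving out an array leaves fewer samples.

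Signs that turned among the members and named genes were all of uncalled genes. In Sf.Il2-/- v Sf, quantile normalization gave -0.10 for Top2a, -0.15 for Ccna2, -0.01 for Cdk1, -0.15 for Mad2l1, -0.05 for Cdc20 and -0.20 for Nusap1. Centring on medians gave 0.05 for Nek2, 0.03 for Kif23 and 0.01 for Racgap1. The mean of probe sets gave -0.01 for Bub3, -0.06 for Spc25, -0.03 for Prc1 and 0.01 for Racgap1. Against B6, quantile normalization gave 0.36 for Bub3 in Sf and 0.08 for Pttg1 in Sf.Il2-/-. The mean of probe sets gave -0.34 for Cenpa in Sf.Il2-/- and -0.41 in Sf, and -0.49 for Bub3 in Sf.Il2-/-. When single arrays were left out, ranges in Sf.Il2-/- v Sf were -0.52 to 0.21 for Mki67, -0.01 to 0.69 for Top2a, -0.18 to 0.39 for Ccna2, -0.07 to 0.63 for Cdk1, -0.02 to 0.79 for Plk1, -0.34 to 0.37 for Nek2, -0.42 to 0.20 for Incenp, -0.11 to 0.40 for Mad2l1, -0.03 to 0.53 for Cdc20, -0.17 to 0.44 for Spc25, -0.28 to 0.24 for Kif23, -0.22 to 0.39 for Nusap1, -0.24 to 0.15 for Racgap1 and -0.37 to 0.82 for Foxm1. For Foxm1 in Sf v B6 the range was -0.42 to 0.77.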
